A study of Mus musculus with 6 samples.

Results

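The 9 genes described here (Eif2ak1, Eif2ak2, Eif2ak3, Eif2ak4, Oma1, Ppp1r15a, Ppp1r15b, Eif2s1 and Eif2b5) sit upstream of the transcription factor ATF4 in the integrated stress response. They were picked by gene symbol for their place in the pathway, out of 39017 mouse genes in the count table, and all 9 passed the filter on low counts. Earlier results of these data were known when the genes and tests were chosen. RNA bound to HA-tagged ribosomes had been pulled down from corpus callosum of female C57BL/6 mice that carried RiboTag and Olig1-Cre. Their stated age was 8 to 10 weeks. RiboTag adds the HA tag to the ribosomal protein RPL22 once Cre has acted, and Olig1, the gene that drives Cre here, is active along the oligodendrocyte lineage, progenitors included. The control group had 3 libraries (replicates 24, 26 and 27, titled Vehicle) and the cuprizone group 3 (replicates 30, 31 and 32), from mice given 0.2% cuprizone, a copper chelator that kills oligodendrocytes, in the diet. The protocol describes 6 or 9 weeks of this diet, then recovery lasting 3 weeks, without placing the cuprizone libraries in that course. Whether the age of 8 to 10 weeks is that at the start of the diet or at tissue collection is not settled here. The protocol does not say whether each library came from 1 mouse. The p-values therefore rest on the spread between these libraries, which may be partly technical.

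When a stress kinase phosphorylates the alpha subunit of the initiation factor eIF2, eIF2 binds and blocks its own exchange factor, eIF2B, and most translation slows while that of ATF4 rises. The 4 kinases answer to different signals: HRI (Eif2ak1) to heme shortage and to mitochondrial stress, PKR (Eif2ak2) to double-stranded RNA, PERK (Eif2ak3) to unfolded protein in the endoplasmic reticulum and GCN2 (Eif2ak4) to amino acid shortage. OMA1, a protease of the inner mitochondrial membrane, cleaves DELE1, which then activates HRI. The phosphate is removed by protein phosphatase 1, guided by GADD34 (Ppp1r15a), which the response itself induces, or by CReP (Ppp1r15b), which is made constantly. Mutations in eIF2B subunits, EIF2B5 most often, cause vanishing white matter disease in humans. The steps of the pathway run largely through phosphorylation and cleavage, which RNA counts do not measure.

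The site on which the kinases act lies in exon 2 of the 8 exons of Eif2s1. It is shown because all 4 kinases converge on it. The 63 bases come from the GENCODE M21 transcript (GRCm38, chr12:78866650-78866712, plus strand), and the capitals mark codon 52, counted from the start codon as 1, which encodes the phosphorylated serine.
Eif2s1 site: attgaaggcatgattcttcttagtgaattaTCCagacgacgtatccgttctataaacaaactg

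RefSeq promoter windows (GRCm38.p6, 250 bases before the start to 50 after it) matched 8 of the 9 genes, and Ppp1r15b had no entry. They were searched on both strands for TGATGNAA, the composite element bound by C/EBP and ATF factors, for TGACGTCA, the cyclic AMP response element (CRE) that ATF and CREB proteins bind, and for GAAANNGAA, a core of interferon-stimulated response elements. TGATGNAA was in 0 of the 8 members and in 3.97% of all 32851 windows. TGACGTCA was in 1 member, Ppp1r15a, and in 1.79% of all windows. GAAANNGAA was in 3 members (Eif2ak2, Ppp1r15a and Eif2s1) and in 8.56% of all windows. A match is a description of the letters and not a shown binding site.

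The 250 bases before the start of Ppp1r15a are printed because this gene had the largest fold change of the 9. The capitals mark a GAAANNGAA match that begins at position -220 and the CRE at position -12, with the first transcribed base as position 0 (chr7:45526269-45526518, minus strand).
Ppp1r15a promoter: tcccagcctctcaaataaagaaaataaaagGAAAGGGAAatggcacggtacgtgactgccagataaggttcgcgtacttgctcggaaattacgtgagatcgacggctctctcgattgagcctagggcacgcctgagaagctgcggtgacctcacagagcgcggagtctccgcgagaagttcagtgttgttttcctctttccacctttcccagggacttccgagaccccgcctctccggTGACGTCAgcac

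In Eif2ak2, a gene known to be induced by interferon, 2 GAAANNGAA matches overlapped just after the start. They are shown in capitals within bases 14 to 38, counted from the first transcribed base as 1 (chr17:78882535-78882559, minus strand).
Eif2ak2 site: gccggGAAAACGAAACAGAAgagaa

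Total counts ran from 18549360 to 22381307 per library. The TMM factors, by which edgeR multiplies library totals, were 0.915 to 0.941 in control and 1.05 to 1.11 in cuprizone. Relative to plain totals they lower the scaled values of the cuprizone libraries, and no fit used plain totals. Cuprizone replicate 32 stood apart from its group: the chi-square per degree of freedom over genes was 85.1 and 101 against replicates 30 and 31 and 26.6 between those. Markers of the oligodendrocyte lineage, in which the Cre driver is active, were present in all libraries. The 7 mature oligodendrocyte markers summed to 57959 to 79438 CPM (counts scaled to the TMM-adjusted library total) in control and 7738 to 14480 CPM in cuprizone, and all 7 fell. The 5 progenitor markers summed to 563 to 774 CPM in control and 457 to 710 CPM in cuprizone. In bulk RNA, fewer cells of a type and less RNA per cell cannot be told apart. Markers of cells outside the lineage were present too, and none of them was at 0 in all 6 libraries. The 7 astrocyte markers summed to 21347 to 24083 CPM in control and 15221 to 29273 CPM in cuprizone, where they exceeded the mature oligodendrocyte sum in each library. The 7 microglia markers summed to 949 to 1710 CPM and 1328 to 2789 CPM, and the 6 neuron markers to 1577 to 2402 CPM and 2054 to 3833 CPM. The 5 erythroid markers summed to 1.70 to 33.1 CPM and 2.07 to 117 CPM, and the 4 endothelial markers to 13.4 to 19.3 CPM and 18.0 to 49.4 CPM. Replicate 32 held the highest microglia, neuron, erythroid and endothelial sums of the 6 libraries and the lowest astrocyte and progenitor sums. Of all genes tested, edgeR called 7.57%, and 23.3% had an unadjusted p under 0.05. None of the progenitor, astrocyte, microglia, neuron, erythroid or endothelial markers passed edgeR's test, where 3 had an unadjusted p under 0.05. Their part in the members' values was not tested. DESeq2 called Ppp1r1b of the neuron list and Flt1 of the endothelial list higher, both named after their values were seen, and limma-voom none.

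None of the 9 genes passed the test between cuprizone and control. edgeR's quasi-likelihood test called 0 of 9 at a Benjamini-Hochberg adjusted p of 0.05, against 7.57% of the 16569 genes tested. DESeq2 and limma-voom also called 0 of 9, with 13.7% and 7.51% of all genes called. At an unadjusted p of 0.05 edgeR passed 1 member, Ppp1r15a, against 23.3% of all genes. The median log2 fold change of the members was -0.05, beside 0.02 for all genes, and the median size regardless of sign was 0.24, beside 0.25. The groups did not overlap for 3 members (33.3%), Eif2ak2 and Ppp1r15a higher and Eif2ak1 lower, which is near the 30.2% of all genes. When cuprizone replicate 32 was left out, edgeR called 1 member, Ppp1r15a, against 8.53% of all genes.

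**Figure D1:**
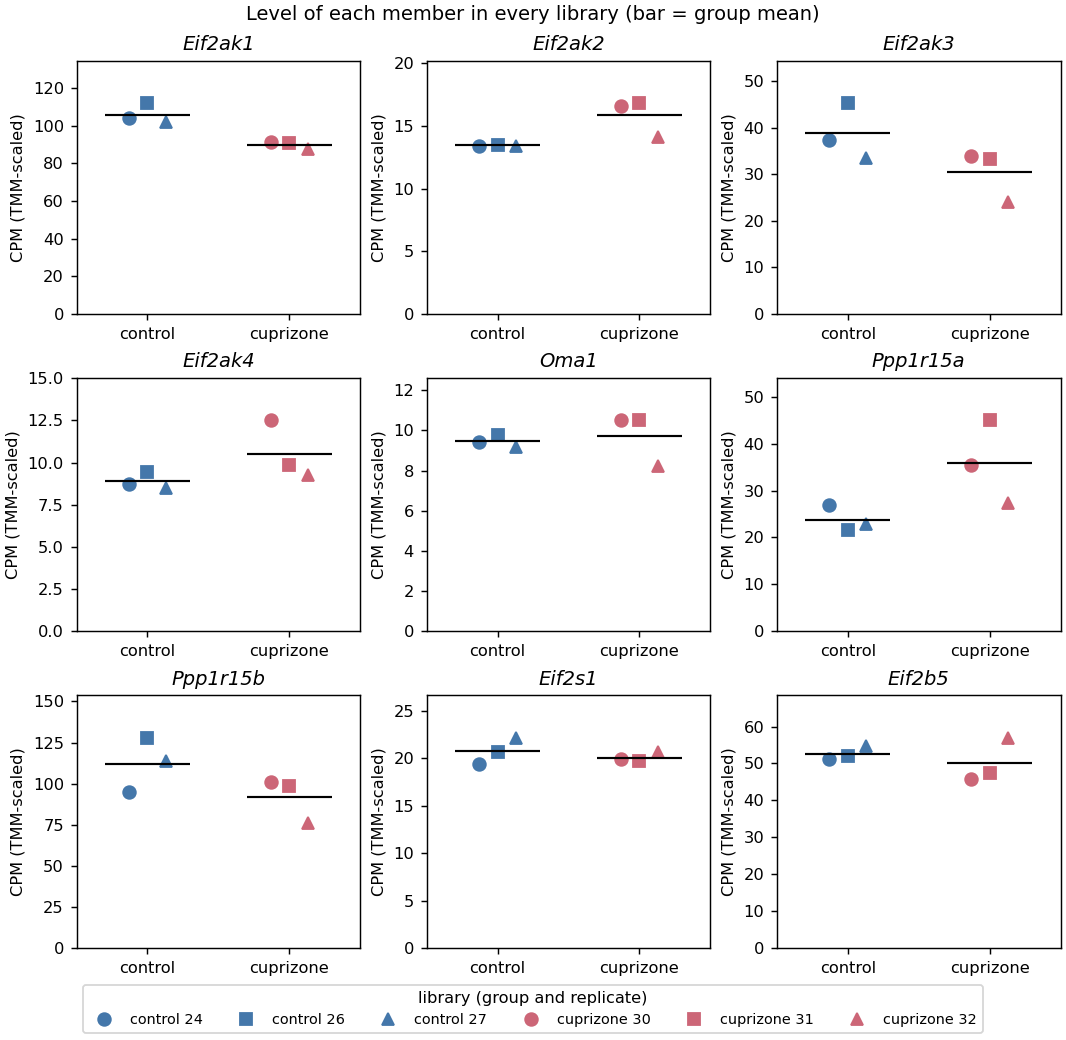
Level in CPM (y axes from 0) of each of the 9 genes in the 3 control and 3 cuprizone libraries. Each symbol is a library and the bar is the group mean. Only Eif2ak1, Eif2ak2 and Ppp1r15a have groups that do not overlap, and replicate 32 is the lowest cuprizone library in 7 of the 9 panels.

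Eif2ak1, which encodes HRI (ENSMUSG00000029613, chromosome 5, 143817788 to 143904251 in GRCm38), stood at 104, 112 and 102 CPM in control replicates 24, 26 and 27 and at 91.3, 90.7 and 87.6 CPM in cuprizone replicates 30, 31 and 32. On these TMM-scaled values each cuprizone library was below each control library, by a small margin. Without the TMM factors the separation is lost. Control replicate 24 had 1759 of 18549360 total counts, and cuprizone replicate 30 had 2025 of 20028829, a larger share. The edgeR log2 fold change, with TMM, was -0.24 ± 0.10 (SE, 95% interval -0.47 to 0.00, adjusted p = 0.22). Its exons share 487 bases (8.59%) with Aimp2 and 172 bases with Ankrd61 on the opposite strand, and whether the counting used strand is not known. The other 3 members whose exons share over 3% with an opposite transcript are Eif2ak3 (8.05%), Ppp1r15b (11.4%) and Eif2ak2 (3.40%).

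Eif2ak2, which encodes PKR (ENSMUSG00000024079, chromosome 17, 78852564 to 78882573), was at 13.4, 13.5 and 13.4 CPM in control and at 16.6, 16.8 and 14.1 CPM in cuprizone. The groups did not overlap, and replicate 32 was nearest to the controls. edgeR put the log2 fold change at 0.24 ± 0.12 (95% interval -0.05 to 0.52, adjusted p = 0.30). The interval's upper end corresponds to a 1.44-fold rise. Of 13 tested genes that interferon induces, edgeR, DESeq2 and limma-voom called none, against 7.57%, 13.7% and 7.51% of all genes. The unadjusted p of edgeR was under 0.05 for 3, beside 23.3% of all genes. Those were Ifi27 (log2 fold change -0.41, adjusted p = 0.10), Bst2, or tetherin, which holds virus particles at the cell surface (0.59, adjusted p = 0.14), and Irf9, the DNA-binding part of the complex that reads interferon signals (0.44, adjusted p = 0.21). The list's median was -0.08.

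Eif2ak3, which encodes PERK (ENSMUSG00000031668, chromosome 6, 70844515 to 70905245), was at 37.5, 45.3 and 33.6 CPM in control and at 34.0, 33.4 and 24.1 CPM in cuprizone. The groups overlapped, since cuprizone replicate 30 lay just above control replicate 27. The fitted log2 fold change was -0.35 ± 0.18 (95% interval -0.77 to 0.07, adjusted p = 0.29). It was -0.22 without control replicate 26 and -0.20 without cuprizone replicate 32, and -0.45 without control replicate 27. PERK shares its lumenal stress input with the other endoplasmic reticulum sensors. Of 4 tested genes of these branches, edgeR, DESeq2 and limma-voom called none, against 7.57%, 13.7% and 7.51% of all genes. The unadjusted p of edgeR was under 0.05 for none, beside 23.3% of all genes. Atf6b, Ern1 (which encodes the sensor IRE1) and Atf6 had log2 fold changes of -0.26, 0.29 and 0.04 (adjusted p of 0.23, 0.30 and 0.87).

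Eif2ak4, which encodes GCN2 (ENSMUSG00000005102, chromosome 2, 118388618 to 118475234), was at 8.72, 9.46 and 8.50 CPM in control and at 12.5, 9.84 and 9.25 CPM in cuprizone. The groups overlapped through replicate 32, and replicate 30 was the highest of the 6. For GCN2 the log2 fold change was 0.24 ± 0.16 (95% interval -0.14 to 0.62, adjusted p = 0.41). It was 0.10 without replicate 30 and 0.33 without replicate 32.

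Per kilobase of exon, HRI was the most abundant kinase transcript in both groups. Eif2ak1 stood at 18.7 ± 0.93 CPM per kb (SD, n = 3) in control and 15.8 ± 0.36 CPM per kb in cuprizone, Eif2ak3 at 6.44 ± 0.99 and 5.06 ± 0.93, Eif2ak2 at 2.63 ± 0.01 and 3.09 ± 0.29, and Eif2ak4 at 1.19 ± 0.07 and 1.41 ± 0.23. The order of the 4 was the same in both groups and no neighbouring pair overlapped within a group. As a share of the 4 summed in the same library, which needs no scaling between libraries, Eif2ak1 took 64.6% ± 1.25 in control and 62.5% ± 2.97 in cuprizone, and Eif2ak3 22.2% ± 1.88 and 19.8% ± 2.39. Both overlapped between the groups (2-sided exact permutation p = 0.4 and 0.3, adjusted p = 0.4 for each over 4 shares).

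The shares of the other two kinases were higher in each cuprizone library than in each control library. Eif2ak2 took 9.29%, 8.47% and 9.59% in control and 12.2%, 12.5% and 11.8% in cuprizone. Eif2ak4 took 4.13%, 4.07% and 4.18% in control and 6.28%, 5.05% and 5.29% in cuprizone. The 2-sided exact permutation test gave p = 0.1 for each, the smallest value that 3 against 3 allows, and 0.2 after adjustment over the 4 shares. Neither difference therefore passes, and shares of one sum move against each other by construction.

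**Figure D2:**
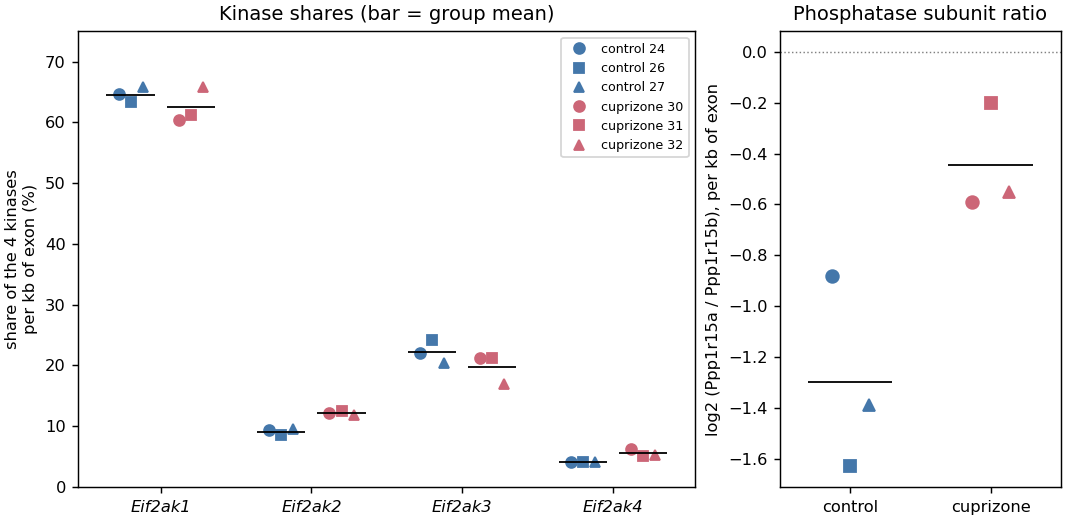
Left, the share of each eIF2 kinase in the summed level of the 4, in percent of counts per kilobase of exon (y axis from 0), in each library, with bars for the group means. Right, the log2 ratio of Ppp1r15a to Ppp1r15b in each library. Eif2ak2 and Eif2ak4 shares and the subunit ratio do not overlap between the groups, while the shares of Eif2ak1 and Eif2ak3 do.

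Oma1, the protease that starts the mitochondrial relay to HRI (ENSMUSG00000035069, chromosome 4, 103313812 to 103371868), was at 9.43, 9.75 and 9.20 CPM in control and at 10.5, 10.5 and 8.21 CPM in cuprizone. The cuprizone libraries held both the highest and the lowest values, and the groups overlapped. The log2 fold change was 0.04 ± 0.15 (adjusted p = 0.90), and its 95% interval of -0.31 to 0.39 spans folds of 0.805 to 1.31. Neither edgeR, DESeq2 nor limma-voom called any of 8 mitochondrial partners of OMA1, against 7.57%, 13.7% and 7.51% of all genes. The single edgeR unadjusted p under 0.05, beside 23.3% of all genes, was that of Spg7. It encodes a subunit of an inner membrane protease (log2 fold change -0.33, adjusted p = 0.11). Dele1, the substrate of OMA1 that carries the signal to HRI, was at 68.1, 72.5 and 80.2 CPM in control and 57.3, 68.2 and 47.2 CPM in cuprizone (-0.35 ± 0.15, adjusted p = 0.23). Afg3l2, the partner of SPG7, had a log2 fold change of 0.12 (adjusted p = 0.55).

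Ppp1r15a, the inducible brake GADD34 (ENSMUSG00000040435, chromosome 7, 45522916 to 45526268), had the largest fold change of the 9 genes. It was at 26.9, 21.6 and 22.8 CPM in control and at 35.4, 45.0 and 27.4 CPM in cuprizone, from 382 to 1052 counts per library. Each cuprizone library was above each control library, but replicate 32 lay only just above control replicate 24. The log2 fold change was 0.59 ± 0.20 (95% interval 0.13 to 1.06), with an unadjusted p of 0.0184 and an adjusted p of 0.13 that did not pass. With DESeq2 the adjusted p was 0.0595. With edgeR and a library other than cuprizone replicate 32 left out, the log2 fold change was 0.40 to 0.71. The adjusted p was then 0.155 to 0.331, which did not pass. Without cuprizone replicate 32 the log2 fold change was 0.76 ± 0.15 (95% interval 0.39 to 1.13) and the adjusted p was 0.0323, which passed. Replicate 32 also held the highest microglia and neuron and the lowest astrocyte marker sums, and their part in this value was not tested. Its exons share 12 bases with Tulp2 on the opposite strand.

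Ppp1r15b, the constant brake CReP (ENSMUSG00000046062, chromosome 1, 133131143 to 133139783), was at 94.7, 128 and 114 CPM in control and at 101, 98.4 and 76.1 CPM in cuprizone. The groups overlapped, with control replicate 24 lower than 2 of the cuprizone libraries. For CReP the log2 fold change was -0.28 ± 0.16 (95% interval -0.67 to 0.10, adjusted p = 0.35). It was -0.17 both without control replicate 26 and without cuprizone replicate 32, and -0.37 without control replicate 24. Both proteins bind the catalytic subunits of protein phosphatase 1. Of these 3 genes edgeR, DESeq2 and limma-voom called none, against 7.57%, 13.7% and 7.51% of all genes. The unadjusted p of edgeR was under 0.05 for none, beside 23.3% of all genes. Ppp1cb, Ppp1cc and Ppp1ca had log2 fold changes of -0.07, -0.09 and 0.03 (adjusted p of 0.76, 0.77 and 0.94).

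The balance of the 2 regulatory subunits within a library was higher, toward the inducible one, in the cuprizone libraries. The log2 ratio of Ppp1r15a to Ppp1r15b, per kilobase of exon, was -0.88, -1.63 and -1.39 in control and -0.59, -0.20 and -0.55 in cuprizone. All 3 cuprizone values were above all 3 control values, a difference of 0.86 on the log2 scale. The 2-sided exact permutation p was 0.1, the smallest that 3 against 3 allows, so the difference cannot pass 0.05 in this design. On average Ppp1r15b exceeded Ppp1r15a 2.46-fold in control and 1.36-fold in cuprizone.

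Eif2s1, which encodes the alpha subunit of eIF2 that the kinases phosphorylate (ENSMUSG00000021116, chromosome 12, 78861819 to 78887010), was at 19.4, 20.7 and 22.2 CPM in control and at 19.9, 19.7 and 20.7 CPM in cuprizone. The cuprizone values all lay within the control range. The log2 fold change was -0.05 ± 0.11 (adjusted p = 0.83), and the 95% interval of -0.30 to 0.21 spans folds of 0.81 to 1.15. Eif2b5, the catalytic epsilon subunit of eIF2B (ENSMUSG00000003235, chromosome 16, 20498817 to 20509323), was at 51.2, 51.9 and 54.7 CPM in control and at 45.8, 47.3 and 57.0 CPM in cuprizone. Replicate 32 was the highest of all 6 libraries and replicates 30 and 31 were the lowest, so the groups overlapped. The log2 fold change was -0.07 ± 0.12 (95% interval -0.35 to 0.21, adjusted p = 0.77), while it was -0.18 without replicate 32 (adjusted p = 0.31), -0.01 without replicate 30 and -0.04 without replicate 31.

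Of the 6 other tested subunits of eIF2 and eIF2B, edgeR, DESeq2 and limma-voom called none, against 7.57%, 13.7% and 7.51% of all genes. With edgeR 23.3% of all genes had an unadjusted p under 0.05. In this list the only one belonged to Eif2b1, the alpha subunit of eIF2B. It was at 28.3, 27.3 and 27.4 CPM in control and 21.2, 22.8 and 24.5 CPM in cuprizone (-0.27 ± 0.11, adjusted p = 0.18). Eif2s3x, the gamma subunit of eIF2, and Eif2b3, the gamma subunit of eIF2B, had log2 fold changes of -0.24 and -0.17 (adjusted p of 0.38 and 0.50). Eif2s3y, the Y-linked copy of Eif2s3x, had 0 counts in all 6 libraries, and the mice were labelled female. The list's median was -0.15, beside 0.02 for all genes.

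**Figure D3:**
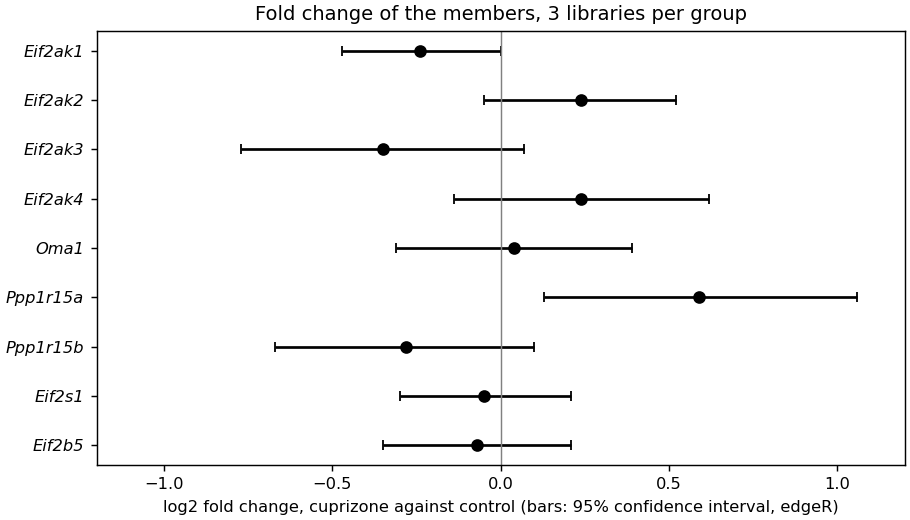
Log2 fold change of cuprizone against control for the 9 genes, with 95% confidence intervals from edgeR's fit to 3 libraries per group. The interval of Ppp1r15a (0.13 to 1.06) lies above 0 before adjustment for multiple testing. That of Eif2ak1 just includes 0, with an upper end that rounds to 0.00, and the other 7 include 0 as well.

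Ranked per kilobase of exon in the control libraries, Eif2b5 (20.3 ± 0.73 CPM per kb, SD, n = 3), Ppp1r15b (20 ± 2.95) and Eif2ak1 (18.7 ± 0.93) led, and each overlapped with the next. Ppp1r15a followed at 8.10 ± 0.95 and overlapped with Eif2ak3. Oma1 (4.41 ± 0.13) and Eif2s1 (4.20 ± 0.29) also overlapped, above Eif2ak2 and Eif2ak4. By group mean the order of the 9 was the same in the cuprizone libraries, but overlapping genes changed places in single libraries. There Ppp1r15a, at 12.2 ± 3.00 CPM per kb, no longer overlapped with Eif2ak3, and Eif2ak3 overlapped with Oma1. Lengths are unions of annotated exons, so a gene whose long isoforms are little used is understated.

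Genes that act on the kinases were also without a call. Of 9 regulators tested, edgeR, DESeq2 and limma-voom called none, against 7.57%, 13.7% and 7.51% of all genes. The unadjusted p of edgeR was under 0.05 for 1, beside 23.3% of all genes. This was Adar, which edits double-stranded RNA and so limits PKR (log2 fold change 0.41 ± 0.17, adjusted p = 0.20). Impact, an inhibitor of GCN2, and Tarbp2, an inhibitor of PKR, had log2 fold changes of 0.33 and 0.39 (adjusted p of 0.30 and 0.38). Among 10 initiation factors that work with eIF2, 1 rose, Eif1a, from 13.3, 16.5 and 13.5 CPM to 22.6, 20.7 and 30.1 CPM (0.76 ± 0.18, adjusted p = 0.0474). Over all genes 1.87% were called higher and 5.70% lower. The call of Eif1a was lost with limma-voom (adjusted p = 0.0564) and in 5 of 6 fits that dropped a library, all but the one without replicate 31 (adjusted p up to 0.18). Reads may be split between it and its close copy Eif1ax (-0.11, adjusted p = 0.61). Eif5, the GTPase activator of eIF2, went from 195, 178 and 170 CPM to 117, 143 and 126 CPM (-0.49 ± 0.13, adjusted p = 0.0657). It was the gene of this list that DESeq2 called lower. Cdc123, an assembly factor of eIF2, had a log2 fold change of -0.16 (adjusted p = 0.37).

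Downstream of these genes, 13 of 18 tested genes of the ATF4 pathway rose. The list was drawn up with their direction in these data known, so it is not independent evidence of it. Of the 18 tested genes edgeR called 13 higher and none lower, DESeq2 15 higher and limma-voom 12 higher. In either direction they called 7.57%, 13.7% and 7.51% of all genes, and edgeR called 1.87% higher. The list's median log2 fold change was 1.28, beside 0.02 for all genes. The 13 ran from Cebpg, a partner of ATF4 (0.69), Mthfd2 of mitochondrial folate metabolism (0.86) and Ddit3, which encodes CHOP, an inducer of Ppp1r15a (0.91), through Cebpb (1.22), Sesn2 (1.33), Slc7a11 (1.38), Asns (1.44), Chac1 (1.70), Atf3 (2.16), Nupr1 (2.85) and Atf5 (3.11) to the stress hormone Gdf15 (4.87) and Trib3 (4.94). Ddit3 was at 48.0, 39.3 and 41.5 CPM in control and 75.8, 99.9 and 66.0 CPM in cuprizone (adjusted p = 0.024). Dropping replicate 30 or any of the controls ended its call, with an adjusted p as high as 0.11. Atf4 itself was at 117, 114 and 111 CPM and 136, 175 and 144 CPM (0.41 ± 0.13, adjusted p = 0.11) and did not pass, nor did Shmt2 of mitochondrial serine metabolism (0.54, adjusted p = 0.0812). These were the 2 genes that DESeq2 called in addition. Atf5, Trib3, Asns, Sesn2, Nupr1 and Gdf15 passed in each of the 6 fits that left out a library, while the list's count fell to 6, 7 and 8 without control replicates 27, 26 and 24, to 7 without cuprizone replicate 30 and to 8 without replicate 31. The other 7 called genes each lost the call in 4 or 5 of those fits, and Mthfd2 also with limma-voom. Psat1 and Phgdh of serine synthesis and Ddit4 were lower in each cuprizone library than in each control library (-0.46, -0.33 and -0.56) and did not pass (adjusted p of 0.20, 0.20 and 0.18). The groups did not overlap for all 18 tested genes of the list, beside 30.2% of all genes.

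**Figure D4:**
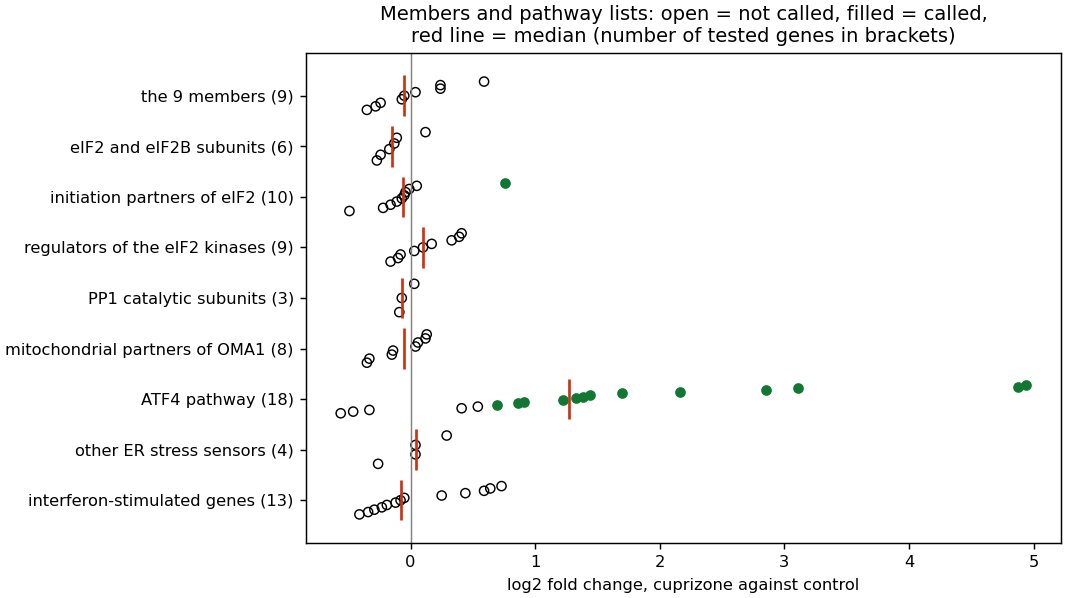
Log2 fold change of cuprizone against control for each tested gene of the 9-gene set and of 8 related lists, with the number tested in brackets. Filled symbols passed edgeR's adjusted p of 0.05 and the red line is the list's median. Only the ATF4 pathway list (13 of 18) and Eif1a among the initiation partners hold filled symbols.

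Over the 6 libraries, the genes whose log2 CPM followed that of Ppp1r15a most closely were Cdk5rap3 (Pearson r = 0.993), Uvssa (0.991) and Mgat1 (0.990), out of 11207 named protein-coding genes with a mean of at least 5 CPM. As 149 genes had r above 0.9, the rank among them is a description only, and the 6 points share the difference between the groups and the scaling. None of the 3 passed the test, with log2 fold changes of 0.24, 0.42 and 0.17 (adjusted p of 0.31, 0.24 and 0.39).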

How the data were processed

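The authors deposited raw read counts per Ensembl mouse gene for 6 libraries. Per the submitters' processing notes, bcl2fastq 2.17 and build mm10 were used; the sources used here name no aligner, counter, annotation or strand setting. Columns were matched to samples by title. Symbols, coordinates and exon lengths came from GENCODE M21 (GRCm38, the same assembly as mm10), in which 37693 of 39017 identifiers were found; the other 1324 held at most 0.461% of a library and stayed in the tests.

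Counts were fitted in R 4.3.3 with edgeR 4.0.16 (filterByExpr with a minimum count of 10 and total of 15, TMM, glmQLFit with robust estimation, glmQLFTest, 2-sided), and p-values were adjusted by Benjamini-Hochberg over the 16569 genes tested, with a threshold of 0.05. SE is the fold change divided by the root of its F statistic. CPM uses TMM-scaled totals. DESeq2 1.42.0 and limma-voom (limma 3.58.1), other scalings and filters, and fits without each library were alternatives. The ratio and shares were compared by exact permutation. The procedure was tested on simulated data with fold changes larger than any member's. This does not show whether changes of the members' size would be called. Groups share no replicate number and no batch is labelled. The members had 146 to 2300 counts per library. Their intervals are for the fold change between group means and rest on the spread between these libraries.

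The members, lists and tests were chosen with earlier results of these data known. Genes were named by a rule: all members, every called gene of a list or, where fewer than 3 passed, the 3 with the smallest adjusted p, and the 3 genes most correlated with the member of smallest adjusted p. Outside this rule, Atf4, Shmt2, Psat1, Phgdh, Ddit4, Eif1ax, Eif2s3y, Ppp1r1b and Flt1 were named with their values known.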

Additional observations from a re-analysis of the deposited data

How the results depend on the processing

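Under 13 alternatives (5 of scaling and filtering, 2 other tests and 6 that left out a library), 0 members were called in all but the fit without cuprizone replicate 32, which called 1, Ppp1r15a. None of these alternatives used library totals without scaling factors. The log2 fold change of Ppp1r15a ran from 0.40 to 0.76 with a library left out. Signs turned for Oma1, which ran from -0.02 to 0.15 (-0.01 without cuprizone replicate 30 and -0.02 without 31), and for Eif2s1, at 0.01 with upper-quartile scaling; the cause was not tested. No paired analysis was possible because the groups share no replicate number. The other 7 members kept their sign in all 13. The log2 ratio of Ppp1r15a to Ppp1r15b differed by 0.69 to 1.06 and the 5 ratio and share differences kept their sign without each library and without division by length. Over all genes, 310 higher and 945 lower calls became 862 and 1400 with DESeq2, and 65 to 464 and 474 to 963 with a library left out. The initiation partners had 2 calls with DESeq2, 0 with limma-voom and 0 to 1 with a library left out, and the ATF4 list 6 to 11, where fewer samples were fitted. Depth is lowest for Eif2ak4, with 146 counts in its shallowest library.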
